A study of Mus musculus with 31 samples.

Results

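The genes described are 42 members of the Wnt signalling pathway: 19 Wnt ligands, 10 Frizzled receptors, 4 secreted Frizzled-related proteins, 3 R-spondins, 2 Dickkopf proteins, the co-receptors Lrp5 and Lrp6, beta-catenin (Ctnnb1) and Apc. Members were all genes with these names among the probes of the array, and 61 probes carried such a name out of 56605 probes of 37074 named targets. RNA of the distal colon was hybridised to single-colour Agilent arrays, 1 array per mouse, for 31 BALB/c mice of 4 to 6 weeks at the start. Every mouse had received azoxymethane (AOM), a colon carcinogen, and dextran sodium sulphate (DSS) in the drinking water, which injures the colon lining, so that no group is without a tumour-inducing treatment. The CRC groups were gavaged with water, and the CRC + E171 groups were gavaged with 5 mg of food-grade titanium dioxide (E171) per kg body weight per day, for 2, 7, 14 or 21 days. By their labels, the groups held 2 males and 2 females each, except CRC at 21 days with 1 male and 2 females. The array labelled male 2 of CRC at 14 days goes against its label, since its log2 signal of the female-specific Xist was -1.6, within the range of the 16 females (-2.34 to -0.70) and above the other 14 males (at most -6.53).

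Wnt ligands are secreted lipid-modified proteins that bind Frizzled receptors together with the co-receptors Lrp5 or Lrp6. In the canonical branch this binding halts the destruction complex that contains Apc, beta-catenin accumulates, and it activates target genes with the TCF/LEF factors. R-spondins from the stroma below the crypt prolong the signal, while secreted Frizzled-related proteins and Dickkopf proteins dampen it. In the colon the pathway maintains the crypt stem cells, and loss of Apc is a common early step of colorectal tumours.

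A probe of each of 3 members described below is shown to place what was measured, and the region before the start of Wnt2 is shown for its match to the GC box. The Fzd5 and Wnt5a values average 2 and 3 probes, and the Wnt5a probe shown is the dimmest of its 3. The 60-base probes are given as in the array design, with mouse mm9 positions, for the receptor Fzd5 (chr1:64781972-64782030, minus strand), the receptor Fzd2 (chr11:102467613-102467672, plus strand) and the ligand Wnt5a (chr14:29331746-29335708, plus strand, a span that includes an intron). The 250 bases before the RefSeq start of Wnt2 are those of GRCm38.p6, chr6:18030446-18030695, minus strand, with capitals for the GC box CCGCCC.
Fzd5 probe A_51_P166456: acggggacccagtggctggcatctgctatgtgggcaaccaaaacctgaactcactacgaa
Fzd2 probe A_51_P404077: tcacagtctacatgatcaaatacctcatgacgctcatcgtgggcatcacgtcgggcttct
Wnt5a probe A_51_P162272: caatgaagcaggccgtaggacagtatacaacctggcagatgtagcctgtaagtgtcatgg
Wnt2 promoter: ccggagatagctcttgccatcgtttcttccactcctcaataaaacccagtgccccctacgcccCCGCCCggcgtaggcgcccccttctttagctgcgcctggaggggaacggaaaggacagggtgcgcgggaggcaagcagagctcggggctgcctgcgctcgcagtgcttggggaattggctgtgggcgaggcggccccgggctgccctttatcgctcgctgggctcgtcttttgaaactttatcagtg
Of the 42 members, 26 had a RefSeq promoter sequence, which runs from 250 bases before the start to 50 bases after it. The GC box GGGCGG, searched on both strands, was in a promoter of 20 of these 26 members, and 35.7% of 32851 single mouse promoters of that length held it. The core of the TCF/LEF motif, CTTTGA on either strand, was in a promoter of 3 members (Wnt5b, Wnt11 and Fzd1), and 16% of all single promoters held it. A member counted when any of its promoters held the motif, so counts of members and shares of single promoters are in unlike units. The motifs do not overlap each other in sequence, and a match describes these letters only.

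Each value below is the log2 signal of a gene relative to the 75th percentile of its array, so that 0 is the level of that percentile. Of the 42 members 40 had a probe that passed the filter on dim probes. Wnt3a and Wnt7a did not pass, and they stayed near background. The Wnt3a probe was well above background on 3 of 31 arrays, and the Wnt7a probes on 0 and 6 arrays. Across the 31 arrays 67.4 to 78.9% of spots were well above background. Precision is set by the number of arrays.

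The arrays did not all show the marker levels of a distal colon. Hoxb13, Hoxd13 and Hoxa13, homeobox genes of the most posterior gut, were low in 3 arrays, named the Hoxb13-low arrays here. The Hoxb13 signal was -8.41 in female 2 of CRC + E171 at 7 days, -6.83 in female 2 and -1.76 in female 1 of CRC + E171 at 14 days, while it ran from 1.29 to 6.49 in the other 28 arrays. These values go against the label of distal colon. A marker score was the median over a list of each gene's log2 signal minus its mean over the arrays. In 3 other arrays, named colonocyte-low here, the score of 10 surface colonocyte genes lay over 2 log2 units below that of the median array, at -6.7 in male 1 and -3.4 in male 2 of CRC at 7 days and -2.1 in male 2 of CRC + E171 at 14 days. Markers of squamous epithelium were over 2 log2 units above the median array in 6 arrays and those of pancreatic acinar cells in 5 arrays, and all 4 arrays of CRC at 7 days were among these 11. Comparisons are therefore given with and without the Hoxb13-low and the colonocyte-low arrays, an exclusion chosen after the data were seen.

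**Figure D1:**
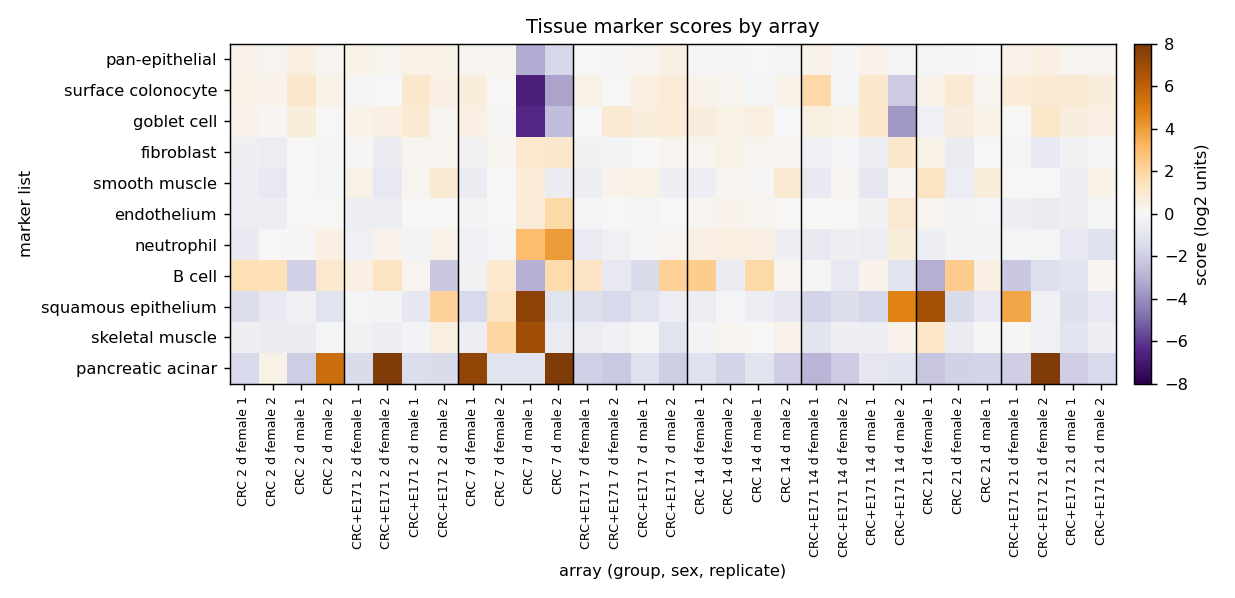
Tissue marker scores (median over a list of each gene's log2 signal minus its mean over arrays, colour scale in log2 units) for 11 lists in rows and the 31 arrays in columns, with lines between groups. Male 1 and male 2 of CRC at 7 days show the lowest colonocyte scores, -6.7 and -3.4, and male 1 of that group a squamous score of 7.5.

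**Figure D2:**
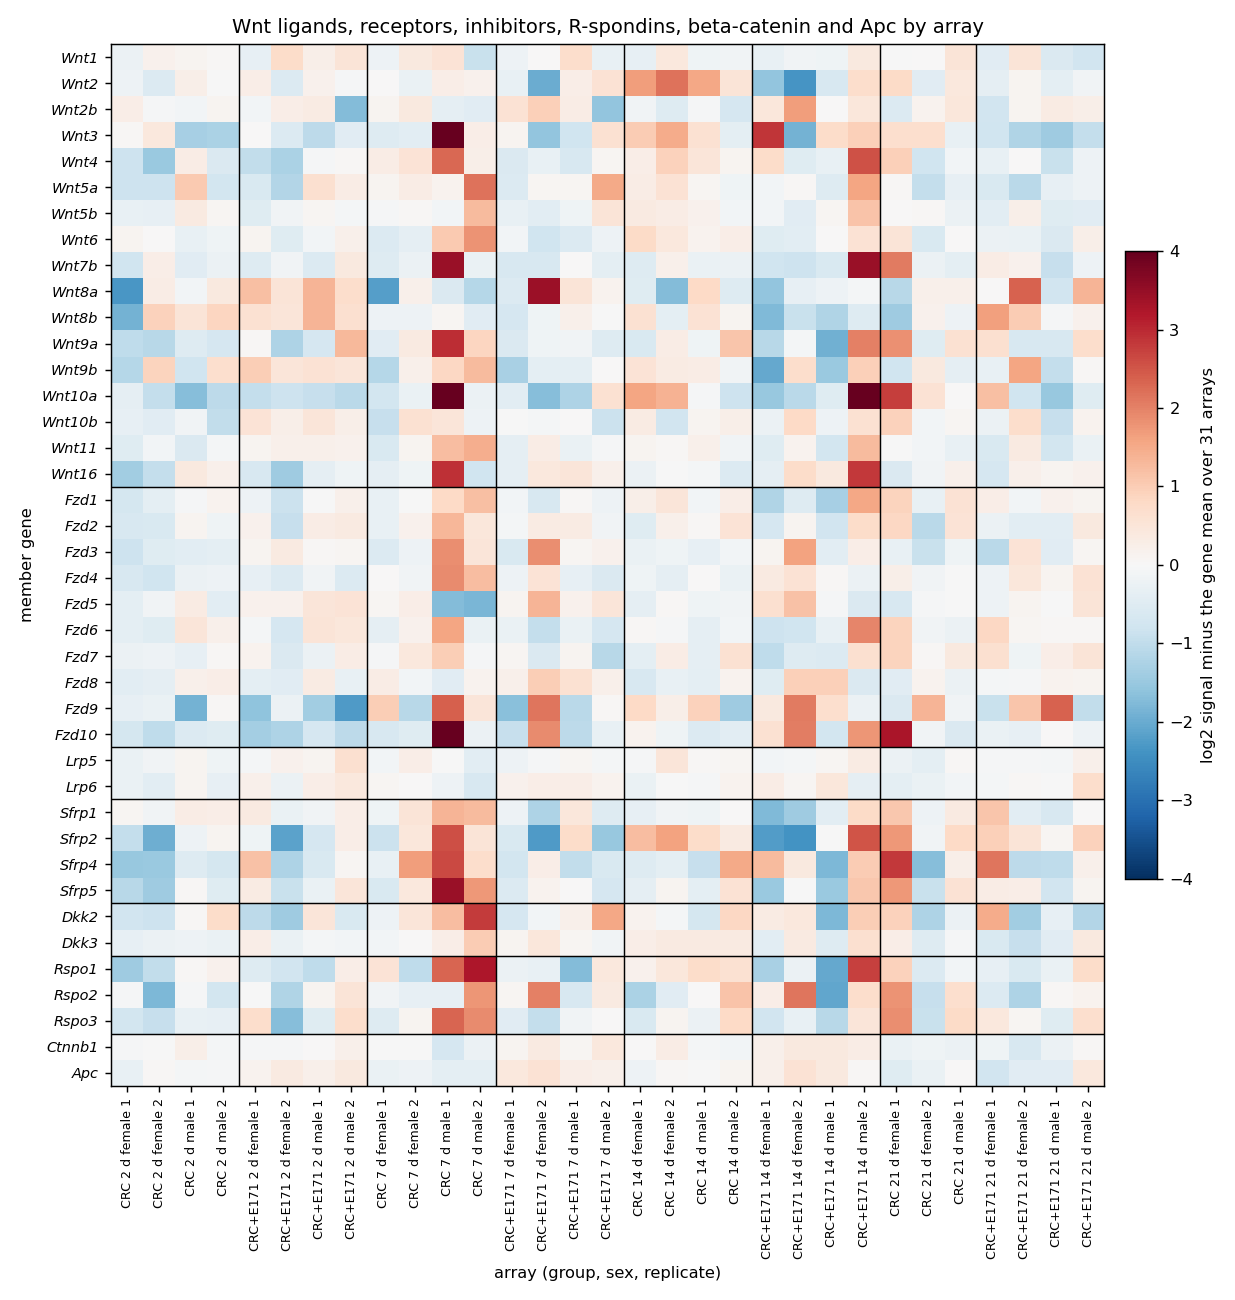
Signal of the 40 members on the 31 arrays, each gene as its difference from its own mean over the arrays (log2 units, colour scale), with genes ordered by role and lines between groups. The columns of male 1 of CRC at 7 days and male 2 of CRC + E171 at 14 days stand out for Wnt7b and Wnt10a.

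The first question was what E171 changed on each day of exposure. A member was called when its fold change was 1.5 or more on the linear scale with an unadjusted p under 0.05 in limma, and no member had an adjusted p under 0.05 in any of the 8 comparisons. Of all genes, 0% had such an adjusted p in 6 of the comparisons, 0.00505% over all days and 0.157% at 21 against 7 days. At 2 days 1 of 40 members was called (2.5%), beside 1.72% of all 19797 genes tested. At 7 days 11 members were called (27.5%), beside 12.4% of all genes. With scan day as a block 4 members were called at 7 days (10%), beside 8.79% of all genes. The members that lost their calls there were Wnt4, Wnt6, Fzd7, Sfrp1, Sfrp5, Rspo1 and Rspo3, with log2 fold changes from -1.73 to -0.66 in that fit. At 14 days 3 members were called (7.5%), beside 6.34%, and at 21 days 1 member (2.5%), beside 2.67%. The median log2 fold change of the members was 0.11, -0.64, -0.01 and -0.19 in order of days, beside 0.06, -0.01, 0.01 and 0.02 for all genes. Since the CRC and the CRC + E171 arrays of the same day lay on different slides, slide and exposure cannot be told apart within a day. In whole tissue, fewer cells of a type and less RNA per cell cannot be told apart either.

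Of the members in the E171 comparisons of single days, Wnt2, a canonical ligand expressed by stromal cells, had the smallest unadjusted limma p, at 14 days. In CRC at 14 days its signal was -1.19 and -0.69 in the females and -1.30 and -2.34 in the males. In CRC + E171 at 14 days it was -4.44 and -5.21 in the females and -3.50 and -2.15 in the males. The CRC arrays lay above the CRC + E171 arrays, except that male 2 of CRC + E171 lay above the array labelled male 2 of CRC. Without that CRC array, the one with the Xist signal of a female, Wnt2 differed by -2.76. The mean was -1.38 ± 0.69 (SD, n = 4) in CRC and -3.82 ± 1.32 (SD, n = 4) in CRC + E171, a log2 fold change of -2.45 (SE 0.50, 95% interval -3.48 to -1.41, adjusted p = 0.437, limma). The two-sided exact permutation test over the 8 arrays gave p = 0.0571, where the smallest p this design allows is 0.0286. The 3 highest Wnt2 values of all 31 arrays were those of female 2, female 1 and male 1 of CRC at 14 days.

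On the other days the Wnt2 means of both exposures were close to one another. They were -3.0 and -2.90 at 2 days, -2.82 and -3.23 at 7 days and -2.62 and -3.06 at 21 days, for CRC and CRC + E171. No other day was called, and the log2 fold changes were 0.10 (SE 0.50), -0.41 (SE 0.50) and -0.44 (SE 0.54). At 7 days the lowest Wnt2 value, -4.86, belonged to female 2 of CRC + E171, a Hoxb13-low array, and without the Hoxb13-low arrays the log2 fold change at 7 days was 0.13. The difference of the E171 effect between the days had an adjusted p of 0.717 (limma F test) for Wnt2. No gene of 19797 passed the adjusted threshold in this test, while 1290 had an unadjusted p under 0.05.

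Both females of CRC + E171 at 14 days were Hoxb13-low arrays, and male 2 was colonocyte-low. Without the Hoxb13-low arrays Wnt2 differed by -1.44 on the log2 scale at 14 days (adjusted p = 0.999, limma). It differed by -3.0 (adjusted p = 0.00968) without the colonocyte-low arrays, a fit in which 2.01% of all genes had an adjusted p under 0.05 at 14 days. Without all 6, which leaves male 1 as the single CRC + E171 array, it differed by -2.12 (adjusted p = 0.0715, where 0.298% of all genes were under 0.05), with that array assumed to vary like the other groups. Wnt2 stayed called in each of these fits. The fibroblast score at 14 days was from 0.21 to 0.38 in CRC and from -0.45 to 1.06 in CRC + E171, with the highest in the colonocyte-low male 2, and its part in the Wnt2 difference was not tested.

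Apc, the scaffold of the destruction complex, was higher with E171 at 7 days. Its signal in CRC at 7 days was -3.45 and -3.39 in the females and -3.58 in each male. In CRC + E171 at 7 days it was -2.78 and -2.60 in the females and -2.92 and -2.99 in the males. Every CRC + E171 array lay above every CRC array. The log2 fold change was 0.68 (SE 0.18, adjusted p = 0.197, limma), and the exact permutation p was 0.0286. Any 4 arrays that do not overlap with 4 others give this exact p, so it adds nothing to the separation itself. Both Apc probes were higher, by 0.51 and 0.84.

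Apc also separated the groups at 2 days, with CRC from -3.48 to -3.14 and CRC + E171 from -3.04 to -2.81. That difference, 0.36 (SE 0.18, adjusted p = 0.999, limma), was under the fold threshold. It was 0.31 (SE 0.18) at 14 days and -0.06 (SE 0.19) at 21 days, where the groups overlapped. The 7-day difference was 0.60 without the Hoxb13-low arrays (adjusted p = 0.296, limma) and 0.59 without the colonocyte-low arrays (adjusted p = 0.999), and Apc was called in both. Without all 6 arrays it was 0.52, under the fold threshold.

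**Figure D3:**
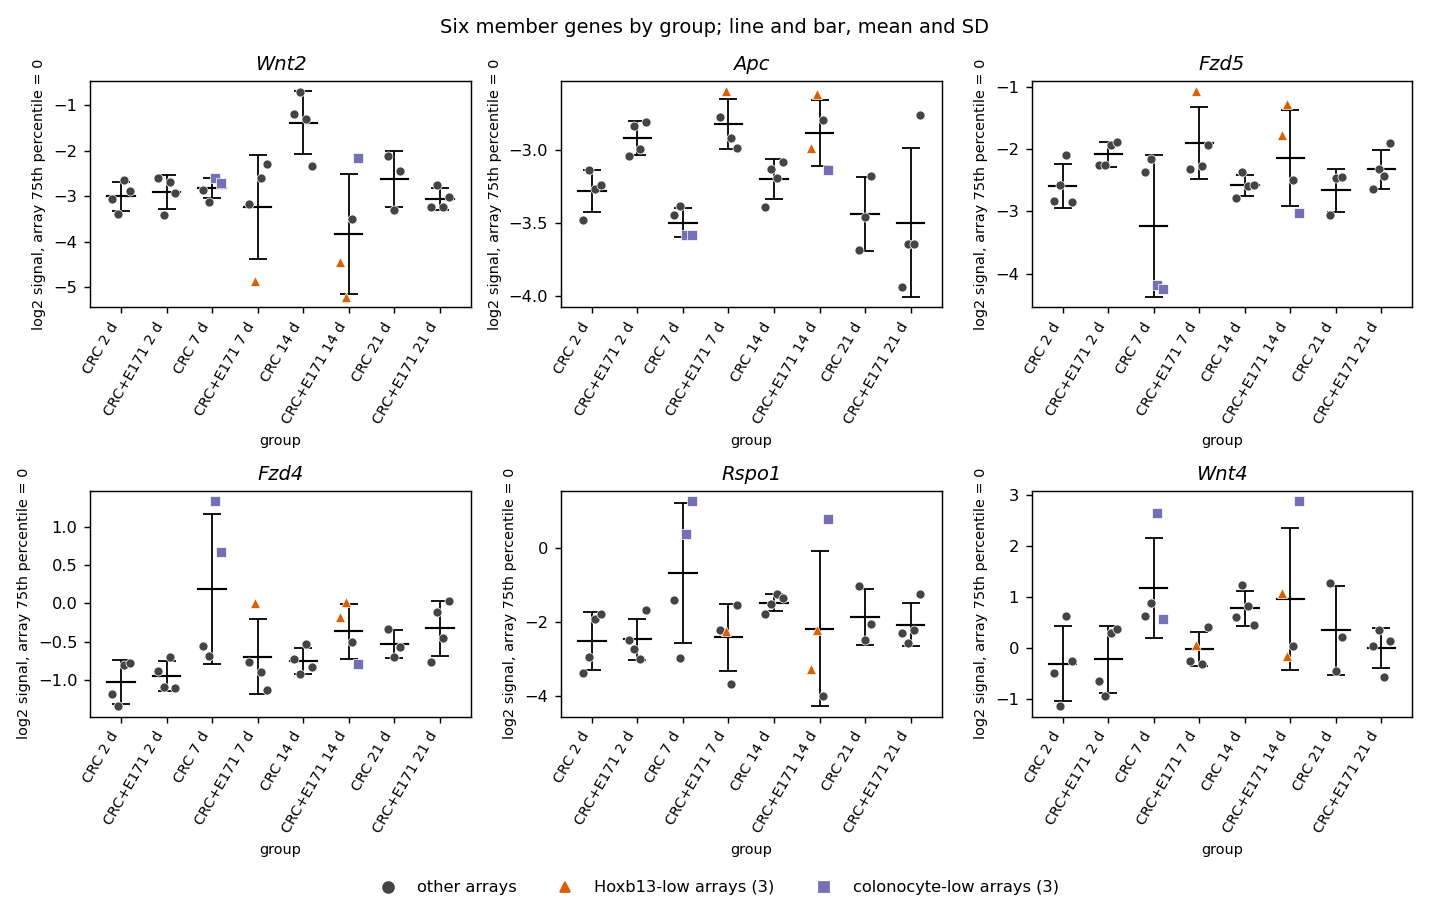
Log2 signal relative to the array's 75th percentile of Wnt2, Apc, Fzd5, Fzd4, Rspo1 and Wnt4 by group, 1 point per array with the group mean and SD, and with the Hoxb13-low (triangles) and colonocyte-low (squares) arrays marked. Apc separates the groups at 7 days, and the high Rspo1 and Fzd4 values of CRC at 7 days are those of the 2 colonocyte-low males.

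At 7 days the other called members were 8 lower and 2 higher in CRC + E171. By role, 2 of 17 ligands (Wnt4, Wnt6) were called lower and 1 (Wnt8a) higher, 2 of 10 receptors (Fzd4, Fzd7) lower and 1 (Fzd5) higher, 2 of 4 secreted Frizzled-related proteins (Sfrp1, Sfrp5) lower and 2 of 3 R-spondins (Rspo1, Rspo3) lower. Neither Dickkopf protein and neither co-receptor was called. The called share was 17.6% of ligands, 30% of receptors, 50% of secreted Frizzled-related proteins and 66.7% of R-spondins, beside 12.4% of all genes. With 4 or fewer members, the last 2 shares turn on single genes.

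Among the ligands, Wnt4, a ligand of non-canonical and context-dependent signalling, had signals of 0.62 and 0.88 in the females and 2.64 and 0.56 in the males of CRC at 7 days. In CRC + E171 it was -0.26 and 0.04 in the females and -0.32 and 0.41 in the males. The groups did not overlap. The log2 fold change was -1.21 (SE 0.54, adjusted p = 0.269, limma), and the lack of overlap fixes the exact permutation p at 0.0286. Wnt4 was -0.78 without the colonocyte-low arrays, and it was not called there.

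Wnt8a, a canonical ligand best known from the early embryo, was dim. No array of CRC at 7 days had it well above background, against 3 of 4 arrays of CRC + E171. Its highest value there, -2.99, was that of the Hoxb13-low female 2, with -6.97, -5.91 and -6.27 in the other 3 arrays. The mean of CRC + E171 was at least 1.57-fold higher than the detection bound of CRC (adjusted p = 0.243, limma), where the bound is the higher of the lowest signal well above background on an array and the probe's own signal. The call was lost without the Hoxb13-low arrays.

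Among the receptors, Fzd5, a Frizzled of the intestinal epithelium, had signals of -2.36 and -2.15 in the females and -4.18 and -4.25 in the males of CRC at 7 days. In CRC + E171 it was -2.32 and -1.07 in the females and -2.26 and -1.93 in the males. The 2 low values were those of the colonocyte-low males, and the highest was that of the Hoxb13-low female 2. CRC + E171 was higher by a log2 fold change of 1.34 ± 0.40 (SE), with an adjusted p of 0.197 in limma. It was 0.36 without the colonocyte-low arrays and 0.09 without all 6, and in neither was Fzd5 called. The 2 Fzd5 probes differed by 0.75 and 1.93 in the same direction.

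Fzd4, a receptor for Wnt ligands and Norrin that endothelial cells carry, had the opposite direction. In CRC at 7 days its signal was -0.55 and -0.69 in the females and 1.34 and 0.66 in the males. In CRC + E171 at 7 days it ranged from -1.13 to 0.00, with the highest value in female 2. E171 gave a log2 fold change of -0.88 ± 0.32 (SE), with an adjusted p of 0.207 in limma, and it was -0.07 without the colonocyte-low arrays. The endothelial marker score was 0.81 and 1.85 in the CRC males, -0.20 and -0.04 in the CRC females and from -0.17 to -0.01 in CRC + E171 at 7 days, with all 8 markers well above background on all 31 arrays, and its part in the Fzd4 difference was not tested. On the other days the Fzd4 means of CRC and CRC + E171 were -1.03 and -0.95 at 2 days, -0.75 and -0.37 at 14 days, and -0.53 and -0.32 at 21 days, none called.

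Rspo1, Rspo3 and the inhibitor Sfrp5 had their highest 7-day values in the same males of CRC. Rspo1 was -1.40 and -2.98 in the females and 0.38 and 1.28 in the males of CRC at 7 days, and from -3.68 to -1.53 in CRC + E171. Rspo3, the main R-spondin of the crypt base stroma, was -3.56 and -2.93 in the females and -0.72 and -1.15 in the males of CRC, and from -3.98 to -3.03 in CRC + E171. Sfrp5 was -2.42 and -1.39 in the females and 1.64 and -0.10 in the males of CRC, and from -2.50 to -1.68 in CRC + E171. In each of these genes both CRC males lay above all CRC + E171 arrays, and so did 1 CRC female by a smaller margin, while the other CRC female lay among them.

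The log2 fold changes were -1.73 (SE 0.80) for Rspo1, -1.33 (SE 0.59) for Rspo3 and -1.52 (SE 0.66) for Sfrp5, with adjusted p from 0.256 to 0.278 in limma. They were -0.23, -0.18 and -0.18 without the colonocyte-low arrays. The remaining 3 called members, Sfrp1, Wnt6 and Fzd7, had log2 fold changes of -1.11, -0.90 and -0.71, and without the colonocyte-low arrays these were -0.54, 0.04 and -0.58. The fibroblast score, with 10 of 10 markers measured, was 0.9 and 1.1 in the colonocyte-low males of CRC at 7 days, -0.26 and 0.22 in the females and from -0.28 to 0.15 in CRC + E171. The neutrophil score, with 9 of 10 markers measured, was 3.0 and 4.0 in those males and from -0.64 to 0.21 in CRC + E171. Their part in these differences was not tested.

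Of the 11 members called at 7 days, Apc alone was called without the colonocyte-low arrays, when 2.65% of all genes were called. Without the Hoxb13-low arrays 6 members were called, beside 11% of all genes. Without all 6 arrays 0 of 40 were called, beside 2.77%. Leaving out male 1 of CRC at 7 days alone gave 3 called members (7.5%), beside 4.63%.

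**Figure D4:**
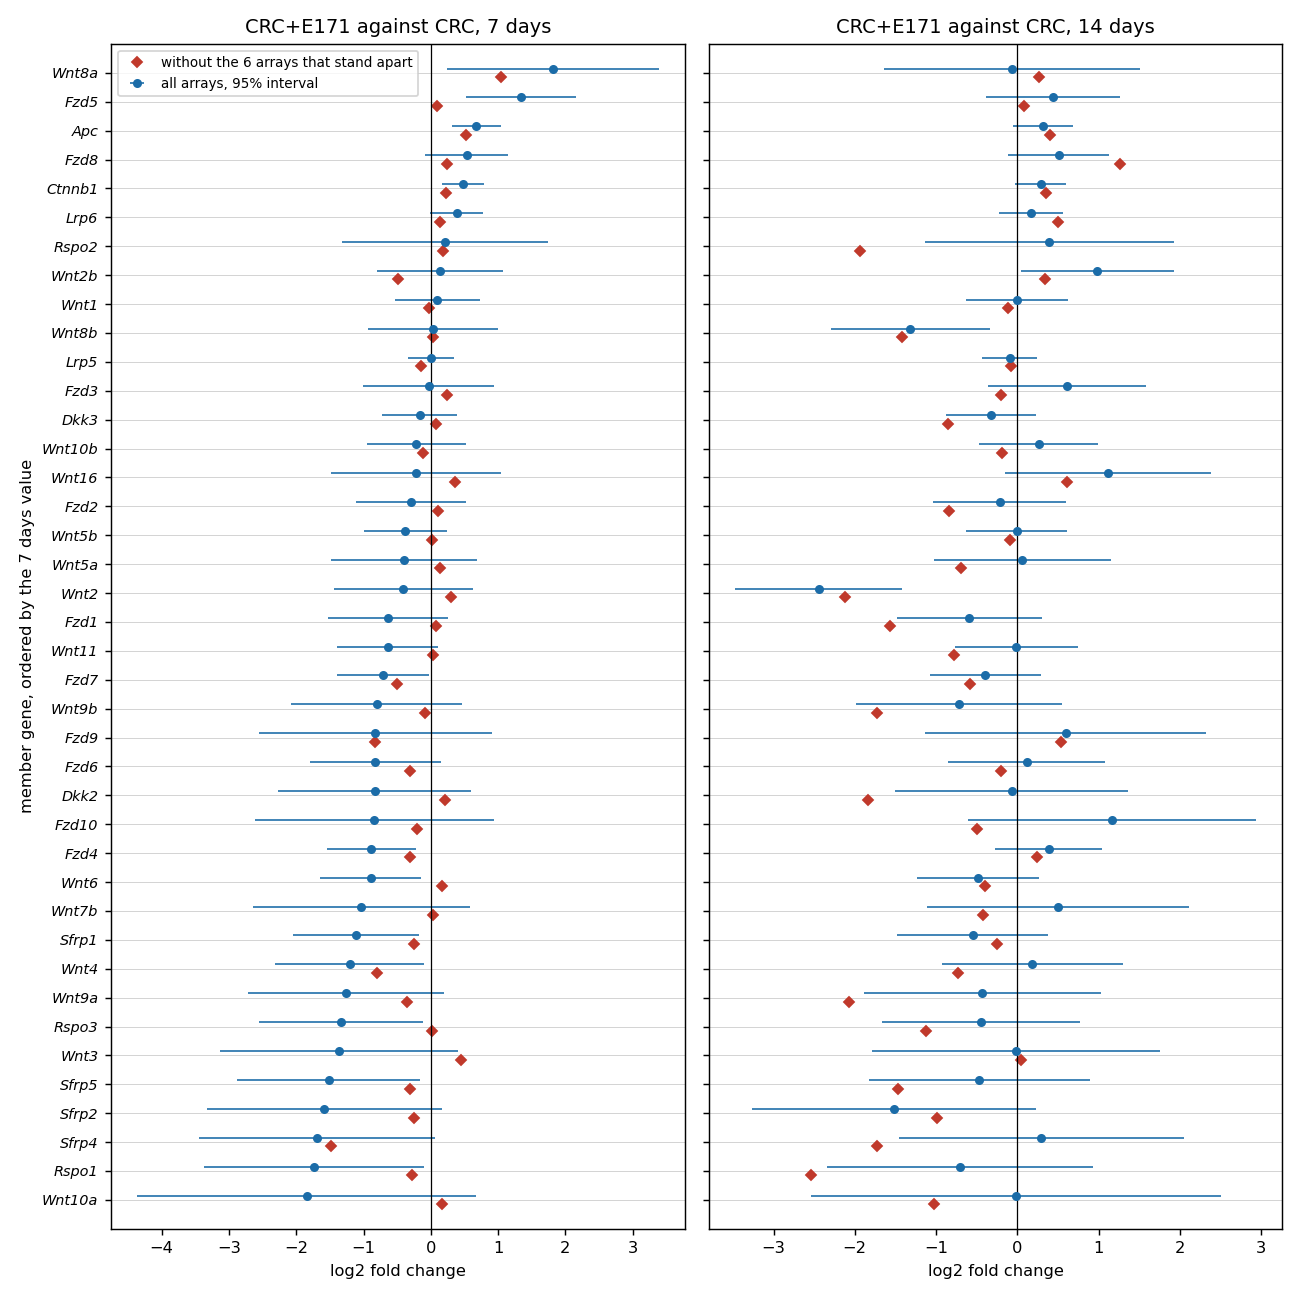
Log2 fold change of CRC + E171 against CRC at 7 and 14 days for the 40 members. Values are given with all arrays, with a confidence interval, and without the 6 Hoxb13-low and colonocyte-low arrays. Without these 6 arrays the 7-day values of the called members lie closer to 0 (Rspo1 from -1.73 to -0.28, Apc from 0.68 to 0.52).

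The arrays of the 2 groups did not overlap at 7 days for 4 members (10%), beside 4.85% of all genes. Besides Wnt4 and Apc these were Ctnnb1, which encodes beta-catenin, and Lrp6. Ctnnb1 ran from 0.40 to 1.08 in CRC and from 1.17 to 1.51 in CRC + E171, a log2 fold change of 0.48 ± 0.15 (SE), with an adjusted p of 0.197 in limma. Lrp6 ran from -0.46 to 0.23 in CRC and from 0.30 to 0.42 in CRC + E171, a difference of 0.39 (SE 0.19), with the exact permutation p of 0.0286 that the lack of overlap fixes. Both were under the fold threshold. The log2 fold changes were 0.26 for Ctnnb1 and 0.16 for Lrp6 without the colonocyte-low arrays. Of 9 pan-epithelial markers 9 were called higher with E171 at 7 days over all arrays (median log2 fold change 1.29), and their part in these differences was not tested.

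At 2 days Wnt10b, a canonical ligand, was the called member. Its signal was -5.57 and -5.69 in the females and -5.37 and -6.24 in the males of CRC. In CRC + E171 it was -4.70 and -5.01 in the females and -4.75 and -5.01 in the males. The groups did not overlap, which fixes the exact permutation p at 0.0286. The log2 fold change was 0.85 (SE 0.36, adjusted p = 0.999, limma). It was not called with no filter on dim probes (0.56), without the arrays high in squamous or acinar markers (0.81), without male 2 of CRC (0.67) or without female 1 of CRC + E171 (0.79).

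At 2 days 5 members (12.5%) did not overlap, beside 3.9% of all genes, and all 5 were higher in CRC + E171. Besides Apc and Wnt10b these were Wnt8a, the receptor Fzd3 and the mostly non-canonical ligand Wnt11. Fzd3 ran from -4.89 to -4.48 in CRC and from -4.04 to -3.70 in CRC + E171. Its log2 fold change of 0.68 (SE 0.47) was not called, and the lack of overlap fixes the exact permutation p at 0.0286. Wnt11 had means of -4.25 ± 0.26 and -3.77 ± 0.04 (SD, n = 4 each). Wnt8a had means of -6.87 ± 1.28 in CRC and -5.48 ± 0.39 in CRC + E171 (SD, n = 4 each), and it was well above background on 2 and 3 arrays. On this day 10 of 10 smooth muscle, 8 of 8 squamous and 8 of 8 acinar markers also had positive log2 fold changes. Their medians were 0.47, 1.13 and 1.09, and none of them was called. In CRC + E171 female 2 alone had a high acinar score, 9.85, and in CRC male 2 had 5.55. The median acinar score was -0.59 in CRC and -1.40 in CRC + E171. The part of these markers in the members' differences was not tested.

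At 14 days the other called members were Wnt8b and Wnt2b. Wnt8b, a ligand of the developing brain, was -5.87, -6.88, -5.92 and -6.38 in CRC and -8.25, -7.38, -7.69 and -7.00 in CRC + E171. The groups did not overlap, but the probe was well above background on 2 of 4 CRC arrays and on 0 of 4 CRC + E171 arrays. CRC was at least 1.06-fold higher than the detection bound (adjusted p = 0.532, limma). Wnt2b, a canonical ligand of the mesenchyme, was -5.76, -6.15, -5.67 and -6.29 in CRC and -5.18, -3.94, -5.62 and -5.17 in CRC + E171. Its highest value belonged to the Hoxb13-low female 2, and the groups did not overlap. The log2 fold change was 0.99 (SE 0.46, adjusted p = 0.6, limma), and it was 0.57 without the Hoxb13-low arrays, no longer called. The call was also lost in 3 of the 8 fits that left out 1 array. The Wnt2b probe was well above background on 2 of 4 CRC arrays and on 4 of 4 CRC + E171 arrays. The 2 members that did not overlap (5%) stood beside 5.89% of all genes.

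The count at 14 days moved with the arrays. Without the colonocyte-low arrays 12 members were called, 10 lower and 2 higher, beside 14.1% of all genes. The lower ones included the inhibitors Sfrp2 (-2.53) and Sfrp1 (-1.05), Rspo1 (-1.69) and the receptor Fzd1 (-1.23), whose adjusted p was 0.0352. In this fit 2 of the 3 remaining CRC + E171 arrays were the Hoxb13-low females. The fibroblast score of these 3 arrays, from -0.45 to -0.13, did not overlap with that of CRC, from 0.21 to 0.38, and its part in these differences was not tested. In these females Sfrp2 was -3.18 and -3.04, and in the third Hoxb13-low array it was -3.05. Without the Hoxb13-low arrays 2 members were called at 14 days, Wnt2 and Wnt16, beside 3.09% of all genes.

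At 21 days Wnt8b was called, in the opposite direction from 14 days. It was -7.90, -6.30 and -6.69 in CRC and -4.86, -5.48, -6.52 and -6.30 in CRC + E171, where the 2 females were the highest and the males overlapped with CRC. No CRC array was well above background and 2 CRC + E171 arrays were, which gives CRC + E171 a mean at least 1.61-fold higher than the bound (adjusted p = 0.854, limma). Both of these females stood high in other tissue markers, female 1 in squamous and female 2 in acinar ones. Without the arrays high in such markers, female 1 of CRC among them, Wnt8b was not called, while 1 member, Wnt1, was called lower, beside 4.37% of all genes. Lrp6 did not overlap, with -0.23, -0.10 and 0.05 in CRC and from 0.10 to 0.86 in CRC + E171, and its log2 fold change was 0.43 (SE 0.21, exact permutation p = 0.0571). Wnt3, a canonical ligand of Paneth cells, did not overlap either, with means of -6.20 ± 0.56 (SD, n = 3) and -7.63 ± 0.28 (SD, n = 4), but the probe exceeded background clearly on 2 of 3 CRC arrays and on 0 of 4 CRC + E171 arrays. These 2 members (5%) stood beside 8.01% of all genes.

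Over all days 3 of 40 members were called for E171 (7.5%), beside 1.79% of all genes. Wnt2 was lower, with a log2 fold change of -0.80 (SE 0.26), and Fzd5 was higher, by 0.65 (SE 0.20). Wnt8a was called higher too, but it was well above background on only 12 of 31 arrays, so no size is given for it. The 3 members had an adjusted p of 0.496 each in limma. Without the Hoxb13-low arrays Wnt8a alone of these was called, and without all 6 arrays none of the 3 was. Without the colonocyte-low arrays 4 members were called (10%, beside 1.64% of all genes), Wnt2, Wnt8a and, lower, Sfrp2 and Wnt10a, while Fzd5 (0.48) was not. This comparison includes the arrays of the single days. The E171 effect differed between days at an unadjusted p under 0.05 for 3 members (7.5%, beside 6.52% of all genes), Wnt2, Wnt8b and Fzd4, each with an adjusted p of 0.717 in limma.

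The second question was what changed with time over both exposures. At 7 against 2 days 4 of 40 members (10%) were called, all higher, beside 5.37% of all genes. These were Fzd4 (0.73, SE 0.23), Wnt4 (0.85, SE 0.38), the receptor Fzd9 (1.26, SE 0.59) and the inhibitor Dkk2 (1.08, SE 0.49), with adjusted p from 0.438 to 0.459 in limma. Dkk2 was highest in male 2 of CRC at 7 days, at -1.81, and Fzd9 in male 1 of that group, at -1.74, and Fzd9 was -1.98 in the Hoxb13-low female 2 of CRC + E171. Without the colonocyte-low arrays 0 members were called, beside 1.66% of all genes.

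At 14 against 2 days 3 members (7.5%) were called, beside 4.6% of all genes. Wnt4 was higher by 1.14 (SE 0.38) and Fzd9 by 1.42 (SE 0.59), and Wnt8b, which was not well above background on any CRC + E171 array at 14 days, was called lower, with adjusted p from 0.324 to 0.449 in limma. Fzd9 (1.17) and Wnt8b were not called without the Hoxb13-low arrays. Wnt4 had group means of -0.32 and -0.23 at 2 days and of 0.78 and 0.96 at 14 days for CRC and CRC + E171, and its highest value, 2.89, was that of the colonocyte-low male 2. Wnt4 was also called without the colonocyte-low arrays, at 0.82, and without the Hoxb13-low arrays, at 1.39, but not without all 6.

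At 21 against 7 days 2 members (5%) were called, both lower, beside 7.32% of all genes. The log2 fold change of Wnt5a, the main non-canonical ligand of the intestinal mesenchyme, was -0.96 (SE 0.39, adjusted p = 0.253, limma). Its values at 7 days ranged from -2.53 to 0.20, with the highest in male 2 of CRC, and at 21 days from -3.07 to -1.93. Fzd3 had a log2 fold change of -0.73 ± 0.35 (SE), with an adjusted p of 0.322 in limma, with its highest 7-day values in male 1 of CRC, -2.20, and in the Hoxb13-low female 2 of CRC + E171, -2.21. Neither was called without the colonocyte-low arrays, and the direction of the calls turned: Sfrp2 alone was called, higher, beside 4.18% of all genes. Without all 6 arrays Sfrp2 and Fzd10 were called, both higher, beside 4.77%.

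Several ligands and receptors varied most with the marker scores of single arrays. Wnt7b, a ligand of stratified and other epithelia, was -0.66 in male 1 of CRC at 7 days, -0.66 in male 2 of CRC + E171 at 14 days and -2.03 in female 1 of CRC at 21 days, against -5.04 to -3.75 in the other 28 arrays. Wnt10a, a ligand of skin and its appendages, was 1.82, 1.11 and -1.29 in these 3 arrays. The receptor Fzd6 was 0.09, 0.45 and -0.60 there. These are the 3 arrays with the highest squamous epithelium scores, and since they stand apart no correlation is given.

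Other members followed the fibroblast or the smooth muscle score over all 31 arrays. Of 160 pairs of a member and 1 of 4 scores, 84 had a permutation p under 0.05 after Benjamini-Hochberg adjustment. The smallest r among these was 0.402 in size, a size reached by 53.1% of the members' pairs and 28.3% of the pairs of all 19797 genes with the same scores. The receptor Fzd2 followed the smooth muscle score with a Pearson's r of 0.812 and a Spearman's rho of 0.825 (permutation p = 1e-05 each, the smallest that these permutations can give, adjusted p = 1e-04 and 0.000145). The r was 0.809 without the 2 arrays farthest from the median score and 0.908 within groups. Fzd1 followed the fibroblast score with an r of 0.793 and a rho of 0.756 (adjusted p = 1e-04 and 0.000145, permutation), and the r was 0.679 without the 2 farthest arrays and 0.909 within groups. Wnt2 followed the fibroblast score with an r of 0.465 and a rho of 0.718 (permutation p = 0.00891 and 2e-05, adjusted p = 0.0216 and 0.000246), and the r was 0.497 without the 2 farthest arrays, 0.540 within groups and 0.834 over the 17 arrays that do not stand apart in any tissue marker. Over these 17 arrays the r was 0.902 for Fzd2 with the smooth muscle and 0.622 for Fzd1 with the fibroblast score.

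The fibroblast score had 25 members past the adjusted threshold, 24 of them positive. An r of that size was reached by 62.5% of the members and 31.7% of all genes with this score. Fzd5 was positive with the pan-epithelial score (r = 0.716, rho = 0.504, adjusted p = 0.00128 and 0.0163, permutation), but the r was 0.238 without the 2 farthest arrays, the colonocyte-low males of CRC at 7 days, and 0.516 over those 17 arrays. All levels of an array share its scaling.

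**Figure D5:**
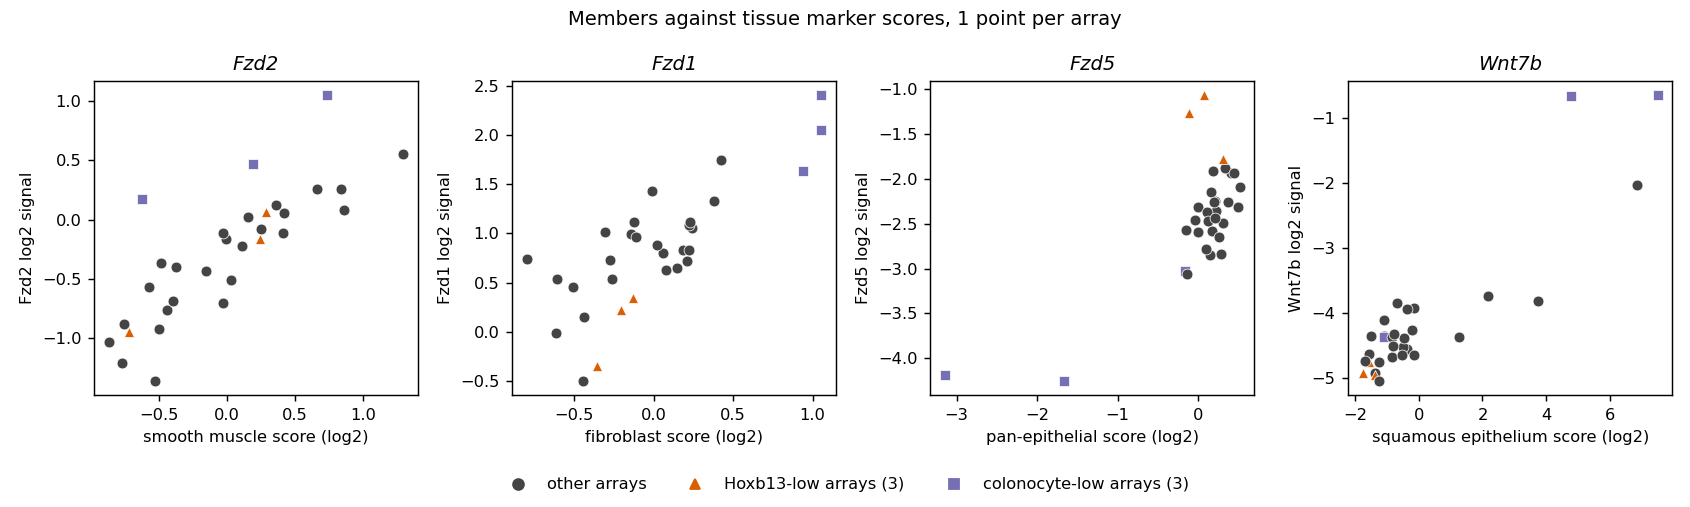
Log2 signal of Fzd2, Fzd1, Fzd5 and Wnt7b against a tissue marker score (log2 units), 1 point per array, with the Hoxb13-low (triangles) and colonocyte-low (squares) arrays marked. Fzd2 and Fzd1 rise with the smooth muscle and the fibroblast score (r = 0.812 and 0.793), and the 2 lowest pan-epithelial scores are those of arrays with low Fzd5.

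The other genes of the pathway were taken from lists of receptors, inhibitors, cytoplasmic and nuclear components and beta-catenin targets, 60 genes in all that were tested. At 7 days 5 were called higher and 2 lower with E171 (11.7%), near the 12.4% of all genes. The largest were the transcription factor and target Sox9 (1.25, SE 0.28), the R-spondin receptor Lgr4 (1.15, SE 0.37), the target Rnf43, a ligase that removes Frizzled receptors (1.17, SE 0.43), the stem cell gene Smoc2 (-1.35, SE 0.37) and Tcf7l2, the partner of beta-catenin (1.01, SE 0.39), each with an adjusted p from 0.197 to 0.218 in limma. In Rnf43 and Lgr4 the males of CRC at 7 days were the lowest, at -4.31 and -3.68 and at -3.88 and -4.43. Of the 60 genes 5 were called higher and 5 lower without the Hoxb13-low arrays (16.7%, beside 11% of all genes). There were 2 called without the colonocyte-low arrays, Sox9 and Smoc2 (3.33%, beside 2.65% of all genes). Without all 6 arrays Smoc2 alone was called (1.67%, beside 2.77%).

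On the other days the calls were fewer. At 2 days 1 of 60, Myc, was called (-0.75, SE 0.31, adjusted p = 0.999, limma), beside 1.72% of all genes. At 14 days Lef1 (-1.61, SE 0.66), Tcf7l1 (-1.41, SE 0.58) and Frzb (-1.16, SE 0.50) were called lower, beside 6.34% of all genes, and at 21 days Lef1 (-1.69, SE 0.72, adjusted p = 0.854, limma), beside 2.67%. Lef1, a TCF/LEF factor that T cells also express, was -2.0 and -2.13 in the Hoxb13-low females at 14 days, and the B cell markers had negative log2 fold changes in 8 of 8 genes at 14 days (median -1.28) and at 21 days (median -0.80), none called, whose part in the Lef1 difference was not tested. Without the Hoxb13-low arrays no gene of the 60 was called at 14 days, beside 3.09% of all genes. Without the colonocyte-low arrays 1 was called higher and 9 lower at 14 days (16.7%, beside 14.1% of all genes), and without all 6 arrays 1 higher and 5 lower (10%, beside 9.9%). At 14 against 2 days 4 genes were called higher, beside 4.6% of all genes in either direction, among them the targets Mmp7 (2.74, SE 1.09) and Sp5 (2.65, SE 0.62, adjusted p = 0.124, limma). Mmp7 was not called without the Hoxb13-low arrays, and Sp5 was. None of the 60 genes passed the adjusted threshold in any comparison.

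The members without a call in any of the 8 comparisons over all arrays were 21 of the 40. Some of these, such as Fzd1, Sfrp2 and Wnt16, were called in fits that left out arrays. The span between their lowest and highest array was from 1.07 log2 units for Lrp5 to 7.59 for Wnt10a, whose highest arrays were the 2 with the highest Wnt7b values. Lrp5, Lrp6 and Ctnnb1 had the narrowest spans of these 21, and each was well above background on all 31 arrays.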

How the data were processed

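RNA of 31 mice was measured on 31 single-colour Agilent SurePrint G3 mouse arrays (annotation on mm9), which the authors scanned and extracted with Feature Extraction 10.7.3.1. The deposited intensity of a spot is background subtracted and detrended within the array, with surrogate values for spots near background, and without normalization between arrays. The authors also deposited log2 values that they had filtered, imputed and normalized by a method not given in the sources used here, and these served as an alternative. Differences of dim genes are therefore less certain.

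The values used were the log2 of the processed intensity minus that of the array's 75th percentile, after 2991 outlier spots were left out. The filter on dim probes asked for 1 group or more with 60% of its arrays well above background and a mean log2 intensity of 4 or more. Kept probes were matched to RefSeq genes (34344 of 42787 probes) and averaged per gene, giving 19797 genes. Genes were fitted with limma 3.58.1 in R 4.3.3 (with statmod 1.5.0) over the 8 groups, and p-values were adjusted by Benjamini-Hochberg over all genes. The fold threshold of 1.5 in the methods was read on the linear scale, with an unadjusted p under 0.05. A single gene on a single day also had a two-sided exact permutation test, and correlations used 100000 permutations. Figures were drawn with Python 3.11.15 and matplotlib 3.10.9.

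The members and lists were chosen with earlier results of these data known. The text gives array values for the called members with the 6 largest fold changes per comparison, for Wnt2, Fzd4 and Apc, and for members whose groups do not overlap, and names at most 5 genes per comparison from the pathway lists. Other pathway lists held Wnt secretion, receptors, extracellular inhibitors, cytoplasmic and nuclear components and beta-catenin targets. Marker lists held smooth muscle, fibroblast, pan-epithelial, surface colonocyte, goblet cell, squamous epithelium, skeletal muscle, pancreatic acinar, neutrophil, B cell, enteric neuron and glia, endothelium and proliferation genes. The arrays lay on 8 slides scanned on 3 days. Alternatives were quantile normalization, normexp background correction, no or a stricter filter, the brightest or each probe, the authors' values, sex and number as a block, slide, scan day, array weights, and leaving out arrays. In a simulation of E171 at 7 days on 19741 genes, 92% of the genes changed 4-fold and 75% of those changed 2-fold were called, and 3.16% of the unchanged genes. The simulated arrays had independent normal noise and no slide, scan day or tissue differences, so these shares do not carry over to the measured arrays.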

Additional observations from a re-analysis of the deposited data

Results flagged for a closer look

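In groups of 4 arrays, 23 of 280 member and group pairs had an array far from the other 3 by Dixon's test, where chance would give about 14, or 1 in 20. Male 1 of CRC at 7 days, a colonocyte-low array with the highest squamous score, stood high in 6 members: Wnt3 (-2.05), Wnt4 (2.64), Wnt7b (-0.66), Wnt10a (1.82), Wnt16 (-2.33) and Fzd10 (-0.28). Male 2 of the same group stood high in Wnt5a (0.20), Wnt5b (0.33) and Rspo2 (-4.76). Male 2 of CRC + E171 at 14 days stood high in Wnt7b (-0.66) and Wnt10a (1.11), and female 1 of that group low in Wnt8a (-8.0).

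At 2 days female 1 of CRC was low in Wnt8b (-8.36) and Fzd3 (-4.89), male 1 of CRC was high in Wnt5a (-0.93), and female 2 of CRC + E171 was low in Fzd2 (-1.21). At 7 days male 2 of CRC + E171 was low in Wnt10b (-6.10), and at 14 days female 1 of CRC stood apart in Dkk3 (-0.38). In CRC + E171 at 21 days female 1 stood apart in Wnt16 (-5.93) and Fzd6 (-0.66), female 2 in Wnt5b (-0.70), and male 2 in Lrp5 (-0.75) and Lrp6 (0.86).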

How the results depend on the processing

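The counts of called members were 1, 11, 3 and 1 for E171 at 2, 7, 14 and 21 days, 3 over all days, and 4, 3 and 2 for 7 against 2, 14 against 2 and 21 against 7 days. At 2 days the count was 2 with normexp and with array weights, 0 with no filter. At 7 days it was 4 with scan day as a block (beside 8.79% of all genes) and 2 with array weights. The share of all genes called changes between fits too, so a count alone does not show whether the members or all genes moved. At 14 days it was 7 with array weights. At 21 days it was 0 with the stricter filter, the authors' values and scan day as a block. Over all days it was 1 with array weights, and 3 with slide as a fixed block. For 14 against 2 days it was 6 with quantile normalization and 7 with array weights. For 21 against 7 days it was 1 with quantile normalization, normexp, the authors' values, slide or scan day as a block and without male 2 of CRC at 14 days, whose female-specific Xist signal did not match its label, and 0 with array weights.

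Comparisons that need CRC at 7 days have no value without the arrays high in squamous or acinar markers. In that fit the counts were 0 at 2 days (beside 2.25% of all genes), 14 at 14 days (14.7%), 1 at 21 days (4.37%, Wnt1 in place of Wnt8b) and 6 for 14 against 2 days (4.39%). Without the Hoxb13-low arrays they were 2 at 2 days (beside 1.65% of all genes), 6 at 7 days (11%), 1 over all days (0.647%), 6 for 14 against 2 days (4.29%) and 1 for 21 against 7 days (7.45%). Without the colonocyte-low arrays they were 1 at 7 days (2.65%), 12 at 14 days (14.1%), 2 at 21 days (4.3%), 0 for 7 against 2 days (1.66%), 6 for 14 against 2 days (6.03%) and 1 for 21 against 7 days, higher (4.18%). Without all 6 arrays they were 2 at 2 days (2.34%), 0 at 7 days (2.77%), 9 at 14 days (9.9%), 3 at 21 days (4.69%), 1 over all days (0.889%), 0 for 7 against 2 days (1.67%) and 2 for 21 against 7 days, both higher (4.77%). These last 3 exclusions were chosen after the data were seen. Of the 160 pairs of member and score, 85 had an r of at least 0.402 in size, 56 without the 2 arrays farthest in the score. The cause was not tested in these cases.

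Leaving out 1 array at a time gave 0 to 1 called members at 2 days, 3 to 14 at 7 days (lowest without male 1 of CRC at 7 days, 6 without male 2 of CRC or female 2 of CRC + E171, 7 without female 1 of CRC + E171), 2 to 9 at 14 days (highest without male 2 of CRC + E171, 5 without female 1 of CRC + E171), 0 to 1 at 21 days, 2 to 7 over all days, 1 to 9 for 7 against 2 days, 3 to 5 for 14 against 2 days and 0 to 4 for 21 against 7 days. Of all genes 4.63% were called at 7 days without male 1 of CRC and 8.76% without male 2 of CRC, beside 12.4% with all arrays. For the other fits no share of all genes is given, so their counts do not show whether the members or all genes moved. At 2 days the call was lost without male 2 of CRC or female 1 of CRC + E171, and at 21 days without female 1 of CRC or female 1 of CRC + E171. The log2 fold change of Wnt2 at 14 days was from -3.0 to -1.98 and that of Apc at 7 days from 0.60 to 0.73.

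Several values changed sign. Wnt2 at 2 days was -0.027 with quantile normalization and -0.012 with the authors' values, and Apc at 21 days was 0.015 with quantile normalization, 0.084 with normexp and 0.11 with its brightest probe, A_52_P633752, or without the squamous or acinar arrays. Fzd4 at 2 days was -0.070 with its brightest probe, A_66_P132734. Wnt2 at 7 days was 0.13 without the Hoxb13-low arrays and 0.30 without all 6, Wnt6 at 7 days 0.039 without the colonocyte-low arrays and 0.17 without all 6, and Rspo3 at 7 days 0.012 without all 6, where Wnt2, Wnt6 and Rspo3 were -0.41, -0.90 and -1.33 over all arrays. Leaving out 1 array, Wnt2 ran from -0.032 to 0.27 at 2 days and from -0.72 to 0.13 at 7 days, Apc at 21 days from -0.30 to 0.088, and Fzd4 at 2 days from -0.028 to 0.16.

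With sex and replicate number as a replicate block the counts were 1, 11, 3, 1, 5, 6, 4 and 2 in the order above. The labels do not tie mice of the same number to each other. Arrays of number 1 lay on slides 1 to 4 and those of number 2 on slides 5 to 8, so the number and the set of slides cannot be told apart. Arrays of the same sex and number had a mean correlation of deviations of 0.0618, others -0.0191, and not every array correlated best with its own number. Wnt2 at 14 days kept its call in all settings run. Apc at 7 days was under the fold threshold without all 6 arrays (0.52) and with probe A_52_P633752 alone (0.51).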
